A study of Nasonia vitripennis with 70 samples.

Results

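Tra, transformer, is 1 gene of the 14621 in the count table of this series, taken by its symbol and followed through 16 groups of wasps that differ in sex, ploidy, generation and tissue. Transformer is a splicing regulator near the top of the insect sex determination cascade. Its protein directs the female-specific splicing of doublesex, the transcription factor gene at the end of the cascade, and acts on fruitless, a regulator of sexual behaviour in the nervous system. In the parasitoid wasp Nasonia vitripennis mothers supply transformer mRNA to the egg, the embryo's own early transcription of the gene depends on a paternally inherited genome, and fertilised eggs become females. Unfertilised eggs become males, whether they are haploid or, laid by triploid mothers, diploid, and male transcripts of the gene are spliced so that early stop codons cut the protein short.

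All animals were of strain WGDL, a line whose genome had been doubled with colchicine, so that every group shares that origin and a line without the duplication was not analysed here. Females were diploid (2N) or triploid (3N) and came from generations F2 and F14. Males were haploid (1N) or diploid (2N) and came from F5 and F15. Heads and abdomens were taken 1 day after emergence, polyadenylated RNA was sequenced without a DNase step, and each of the 16 groups had 4 or 5 libraries. Sex and generation are tied, since no generation supplied both sexes, so the 2 cannot be told apart in any comparison of males with females. The labels do not say how many wasps went into a library or whether libraries came from separate rearings, so the p-values measure the spread between these libraries, which may be partly technical.

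Counts per library, in units of 1e6, ran from 12.2 to 25.1 over the 70 libraries, and no pair within a group agreed within sampling noise. Library C46, labelled an F5 diploid male abdomen, correlated more closely with male heads (r = 0.985) than with male abdomens (r = 0.729) and was left out, which leaves 69 libraries. Library C93, labelled an F15 diploid male head, was about as close to female heads (r = 0.974) as to male heads (r = 0.972), and results that rest on it are given with and without it. Tra itself was well covered, with 573 to 15390 expected counts in heads and 383 to 3585 in abdomens, so counting error is small beside the spread between libraries. Levels below are in TPM, a unit scaled for transcript length and library size, and log2 differences are edgeR estimates from expected counts with their standard error (SE). A gene was called when its adjusted p, over all genes tested in the fit, was below 0.05.

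Tra was much higher in female than in male heads, and the ranges did not overlap. Over 17 female heads its level ran from 340 to 2011 TPM with a median of 629. Over 18 male heads it ran from 35.9 to 189 TPM with a median of 83.04. The median was 7.58 times higher in females, and the lowest female head stood 1.80 times above the highest male head.

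Ranked within each library, Tra exceeded at least 96.7% of genes in every female head. In male heads its rank lay between 77.2% and 93.9%. Diploid males were compared with diploid females, so that ploidy was equal, as the mean of the generations on each side. Tra was lower in males by a log2 difference of -2.50 (SE 0.20, adjusted p = 5.85e-10), the fifth smallest p of 11785 genes tested, of which 9.0% were called. Of those genes, 76 had a more negative estimate. Haploid males, compared with the same diploid females, gave -2.35 (SE 0.20, adjusted p = 1.76e-09), where 32.4% of genes were called. Without C93 the diploid difference was -2.72.

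**Figure D1:**
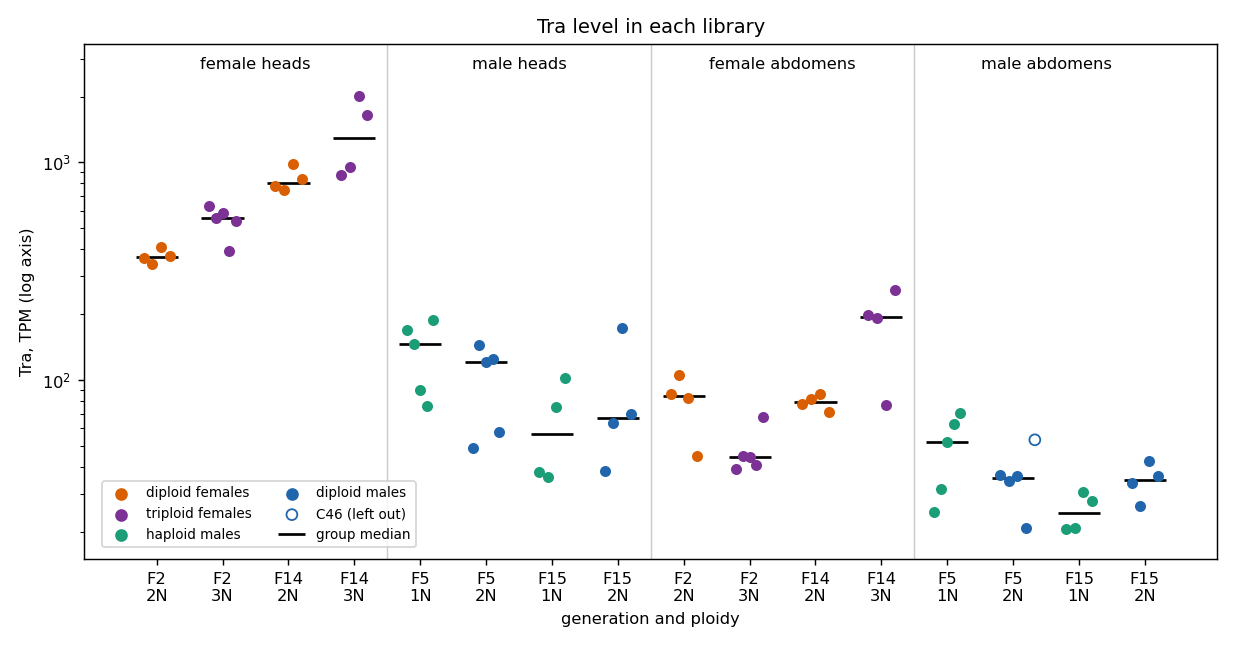
Tra level (TPM, log axis) in each library of the 16 groups, with points for libraries, black lines for group medians and the open point for C46, which was left out. Female heads, between 340 and 2011 TPM, all lie above the male heads, while female and male abdomens overlap.

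Abdomens showed the same direction with a smaller distance and overlapping ranges. Female abdomens ran from 38.95 to 259 TPM (median 77.3, 17 libraries) and male abdomens from 20.6 to 70.3 TPM (median 33.5, 17 libraries), a ratio of medians of 2.30. In all, 4 male abdomens exceeded the lowest female one. Tra was lower in diploid males than in diploid females (log2 -0.74, SE 0.22, adjusted p = 0.0029) and lower in haploid males than in the same females (log2 -0.85, SE 0.21, adjusted p = 0.000612). These calls stand among very many, since 85.2% and 87% of 12291 genes were called in the 2 comparisons.

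The scaling matters here, because the median gene itself stood at 0.54 and 0.59 in these abdomen contrasts. Relative to that median Tra was at -1.28 and -1.45. On the authors' TPM values, where the median gene was at -0.09 and 0.06, limma gave -1.22 and -1.20 for Tra.

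The cell types of the abdomen differed between the sexes as well. All 6 germ line genes measured (oskar and nanos, which act in germ plasm, and the early embryonic regulators Hb, Kr, Gt and Cad) were called lower in male abdomens in both comparisons, and so were all 3 genes of dividing cells (Cdk1, cycB and fzy), while 2 of the 3 muscle genes, Tm1 and Zasp66, were called higher there. A call is the usual outcome in these 2 comparisons, with 85.2% and 87% of all genes called. The median log2 difference of the 6 germ line genes was -7.05 for diploid and -5.92 for haploid males. The summed germ line level was 858 to 2419 TPM in female abdomens and 11.8 to 38.99 TPM in male abdomens. The part of these cells in the Tra difference was not tested, and in such bulk libraries fewer cells that express a gene and less RNA per cell cannot be told apart. In heads the sums of these 6 genes overlapped between the sexes, at 24.8 to 58.1 TPM in females and 16.6 to 44.3 TPM in males. Muscle sums in heads were 458 to 2775 TPM in females and 582 to 9255 TPM in males. No tested gene of these 3 lists, and none of 5 head sensory genes, was called in diploid male against diploid female heads (9.0% of genes called). In haploid male against diploid female heads (32.4% called) Or1 (log2 -2.65) and Kr (-0.74) were called lower, white (2.33) and fzy (0.68) higher. The part of these markers in the head difference was not tested.

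Tra was higher in heads than in abdomens in each of the 4 kinds of wasp. The ratio of medians was 7.02 in diploid females, 9.32 in triploid females, 2.96 in haploid males and 1.99 in diploid males. In both kinds of female every head exceeded every abdomen. In both kinds of male the ranges overlapped, the lowest heads being at 35.9 TPM (haploid) and 38 TPM (diploid) and the highest abdomens at 70.3 and 42.5 TPM.

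The log2 difference of heads over abdomens was 2.57 in diploid females (SE 0.22, adjusted p = 3.89e-16) and 2.72 in triploid females (SE 0.21, adjusted p = 7.45e-18). In haploid males it was 1.24 (SE 0.20, adjusted p = 2.8e-07) and in diploid males 0.88 (SE 0.21, adjusted p = 0.000155). Between 65.8% and 81.6% of 12969 genes were called in these comparisons (81.6% in diploid females, 77.5% in triploid females, 65.8% in haploid males and 68.7% in diploid males), so a tissue call is the usual outcome. The diploid sex difference was larger in heads than in abdomens by a log2 difference of -1.69 (SE 0.29, adjusted p = 7.97e-07), in a contrast that called 74.3% of genes and had a median of -0.46. Without C93 that value was -1.90, and the tissue difference in diploid males was 0.67.

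Ploidy had no called effect on Tra in female heads. Diploid F2 heads were at 363, 340, 409 and 373 TPM and triploid F2 heads at 629, 553, 587, 391 and 538 TPM, so that 4 of the 5 triploid libraries lay above all diploids. The log2 difference of triploids over diploids was 0.42 (SE 0.27, adjusted p = 0.283), with 18.6% of genes called. Fitted on those 2 groups alone the estimate was 0.41 and passed the threshold (adjusted p = 0.0265). Summed muscle genes (Tm1, Tm2 and Zasp66, which encode tropomyosins and a sarcomere protein) moved with this comparison, at 458 to 650 TPM in triploid and 2174 to 2775 TPM in diploid F2 heads, with 2 of the 3 called lower in triploids. Of 5 genes of head sensory and clock cells, Or1 (log2 -3.74, adjusted p = 0.00272) and white (log2 -6.15, adjusted p = 2.21e-06) were called lower and Pdf (log2 1.26, adjusted p = 0.00289) higher in triploids. The part of these markers in the Tra values was not tested.

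At F14 diploid heads were at 776, 744, 983 and 835 TPM. Triploid heads were at 871, 949, 2011 and 1646 TPM, C63 and C64 being the 2 high ones. The 5 head sensory genes (Or1, Lop1, HisCl1, Pdf and white, of smell, vision and the clock) summed to 2760 and 3498 TPM in those 2, against 6216 and 6489 TPM in the others. Lop1 and Pdf were lower there, whereas Or1, at 60.3 and 55.9 against 34.4 and 2.53 TPM, and HisCl1, at 130 and 142 against 107 and 96.1 TPM, were higher, and white was listed at 0 in all 4. The groups overlapped, and the log2 difference was 0.57 (SE 0.28, adjusted p = 0.153), with 20.9% of genes called. As at F2, Or1 and white were called lower and Pdf higher in triploids. White was near 0 in F14 diploids too, at 0.13 to 0.33 TPM against 4.67 to 5.41 TPM in F2 diploids, so its F14 call rests on values at the floor. The part of these markers in Tra was not tested. The change in the ploidy difference between F2 and F14 was 0.15 (SE 0.39, adjusted p = 0.866, 6.25% of genes called), and it was -0.09 without C63 and -0.07 without C64.

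Haploid and diploid male heads overlapped at both generations. F5 haploid heads were at 169, 147, 90.04, 76.04 and 189 TPM and F5 diploid heads at 48.4, 144, 121, 125 and 57.8 TPM. The difference of diploids over haploids was -0.58 (SE 0.25, adjusted p = 0.427), in a comparison that called only 0.424% of genes. F15 haploid heads were at 37.8, 35.9, 75.0 and 102 TPM and F15 diploid heads at 38, 63.4, 174 (C93) and 70.0 TPM.

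The F15 difference was 0.27 (SE 0.28, adjusted p = 0.701, 0.0255% of genes called) and turned to -0.15 without C93. The change between the generations was 0.85 (SE 0.38, adjusted p = 0.598, 0.00849% of genes called), and 0.42 without C93. A ploidy effect on Tra in male heads was therefore not detectable with these libraries, in comparisons where few genes of any kind were called.

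Muscle genes spread widely over the male heads, from 582 to 9255 TPM in sum, and were highest in the heads with the least Tra. The 3 male heads with the lowest Tra, C82, C81 and C91 at 35.9, 37.8 and 38 TPM, had summed muscle levels of 7159, 6500 and 9255 TPM. They also had the 3 lowest sums of head sensory genes of the 18 male heads, at 1720, 1244 and 1230 TPM. Most of each sum was Lop1, at 1437, 1004 and 934 TPM. Their sums of the 6 genes of the germ line list were the 3 lowest too, at 18.6, 16.9 and 16.6 TPM. Most of that was Gt, at 12.26, 10.57 and 11.25 TPM. Gt was called higher in heads than in abdomens in haploid and diploid males, so in male heads this sum need not mark germ line. The 3 with the highest Tra, C55B, C93 and C51 at 189, 174 and 169 TPM, had muscle sums of 701, 582 and 922 TPM and head sensory sums of 6845, 15855 and 5302 TPM. Lop1 and Pdf were higher in these 3 than in the 3 low ones, whereas HisCl1, white and Or1 overlapped. Or1 was at 0.97, 314 and 1.76 TPM in C55B, C93 and C51, against 36.4, 26.9 and 36.2 TPM in C82, C81 and C91. C42 had 144 TPM of Tra at a muscle level of 3102 TPM. None of the 3 muscle genes was called in the ploidy comparisons of male heads, where only 0.424% (F5) and 0.0255% (F15) of all genes were called. Median muscle sums were 1387 TPM in haploids and 3102 TPM in diploids at F5, and 4627 and 4575 TPM at F15. The part of any of these markers in the spread of Tra was not tested.

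**Figure D2:**
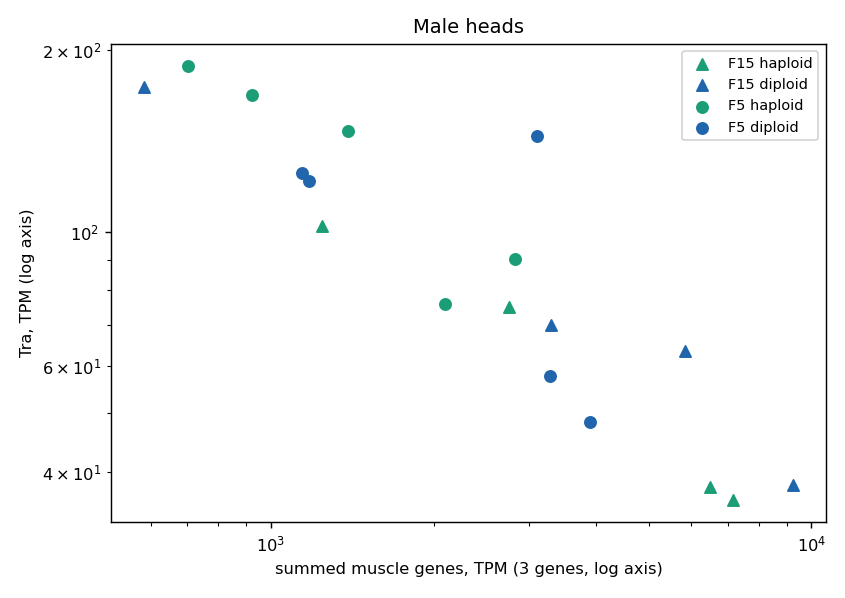
Tra level against the summed level of 3 muscle genes (both TPM, log axes) in the 18 male heads, with colours for ploidy and shapes for generation. Libraries with muscle sums of 6500 TPM or more have Tra at 35.9 to 38 TPM, and all 3 are from F15.

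In female abdomens Tra was called higher in triploids than in diploids at F14, while at F2 the estimate was negative and was not called. At F2 the diploid abdomens were at 86.6, 105, 82.7 and 44.7 TPM, the last being C30, and the triploid abdomens at 38.95, 44.6, 44.1, 40.8 and 67.5 TPM. All triploids lay below the 3 higher diploids, and C30 lay among them. The log2 difference was -0.73 (SE 0.29, adjusted p = 0.0979, 12.4% of genes called), and -0.92 without C30 (adjusted p = 0.0294).

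At F14 the diploid abdomens were close together at 77.3, 81.5, 85.97 and 71.1 TPM. Triploid abdomens C66, C67 and C69 were at 198, 193 and 259 TPM, above all diploids, while C68 was at 76.7 TPM among them. Tra was called higher in triploids (log2 1.53, SE 0.32, adjusted p = 0.00112), where 26.7% of genes were called. Fitted on those 2 groups alone the estimate was 1.54 and the call ended (adjusted p = 0.0585).

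The difference between these ploidy effects was 2.26 (SE 0.43, adjusted p = 0.000199), and 39.7% of genes were called in the same contrast. Leaving out each library in turn kept it between 1.92 and 2.54.

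The libraries that set Tra apart at F14 also stood apart in germ line and dividing-cell genes, and in their whole profile. C66, C67 and C69 correlated with female abdomens at r = 0.915, 0.940 and 0.891. C68 was at 0.984, and the lowest of the remaining female abdomens, C39, at 0.970. With male abdomens C66, C67 and C69 were at 0.703, 0.677 and 0.757, the highest values among female abdomens. Summed germ line genes were at 1120, 1282 and 858 TPM in C66, C67 and C69, against 2209 TPM in C68 and 1941 to 2419 TPM in the diploids. Summed dividing-cell genes were at 326, 430 and 310 TPM in those 3, against 1844 TPM in C68 and 1306 to 1663 TPM in the diploids. At F2 the dividing-cell sum was 648 to 858 TPM in the 3 diploids with higher Tra, 1499 TPM in C30 and 1143 to 1784 TPM in the triploids. Of all genes, 12.4% were called for ploidy at F2 and 26.7% at F14, there mostly higher in triploids (2842 of 3281). None of the 6 germ line or 3 dividing-cell genes was called at either generation. Their median log2 differences at F14, with C68 among the triploids, were -0.93 and -0.76. In F14 triploids 2 of the 3 muscle genes were called higher, with a sum of 5449 TPM in C69 and 721 to 1132 TPM in the other 3. The part of these cells in the Tra differences was not tested.

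**Figure D3:**
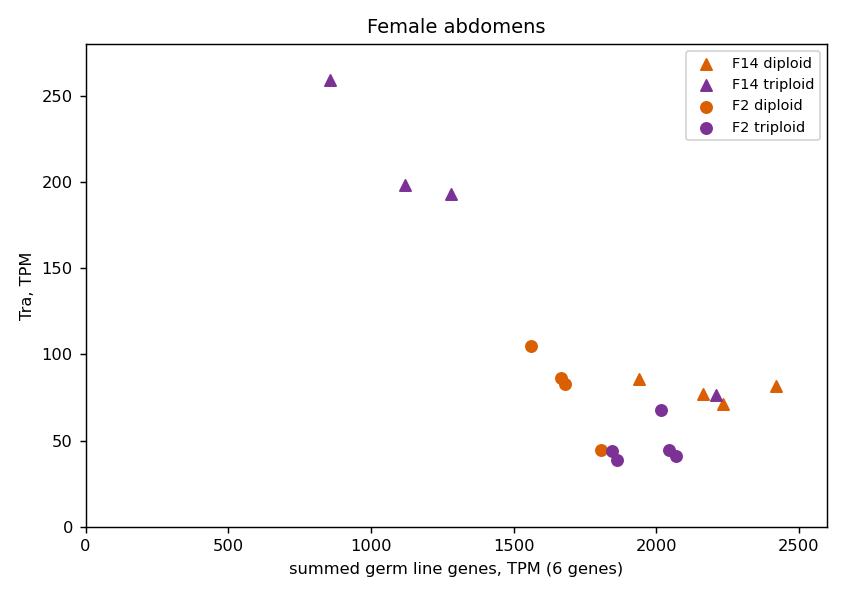
Tra level against the summed level of 6 germ line genes (both TPM) in the 17 female abdomens, with colours for ploidy and shapes for generation. The 3 F14 triploid libraries at 193 to 259 TPM of Tra have the 3 lowest germ line sums, 858 to 1282 TPM, and C68 lies with the diploids.

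Abdomens of males showed no called ploidy effect. F5 haploid abdomens were at 24.6, 31.7, 51.8, 63.01 and 70.3 TPM and F5 diploid abdomens at 36.7, 34.2, 36.3 and 20.9 TPM, the last being C50. The difference of diploids over haploids was -0.41 (SE 0.30, adjusted p = 0.614, 0.317% of genes called). F15 haploid abdomens were at 20.6, 20.9, 30.4 and 27.8 TPM and F15 diploid abdomens at 33.5, 26.5, 42.5 and 36.02 TPM.

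At F15, 3 of the 4 diploid abdomens lay above all haploid ones. The difference was 0.63 (SE 0.31, adjusted p = 0.168, 22.4% of genes called), and on those 2 groups alone 0.64 with an adjusted p of 0.0311. All 3 dividing-cell genes and 2 of the 3 muscle genes were called lower in the F15 diploid abdomens, and their part in the Tra values was not tested. The change between generations was 1.04 (SE 0.43, adjusted p = 0.164, 5.94% of genes called).

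Tra was called in 4 of the 8 comparisons of the later with the earlier generation. Triploid females were higher at F14 than at F2 in both tissues. In heads the log2 difference was 0.87 (SE 0.27, adjusted p = 0.0101, 43.6% of genes called), and all F14 triploid heads, from 871 TPM, lay above all F2 ones, up to 629 TPM. That call ended without C63 (0.65, adjusted p = 0.0731) or C64 (0.66, adjusted p = 0.0628). In those heads Or1 (log2 2.26), Hb (7.01, at most 2.32 TPM) and Kr (1.22) were called higher at F14 and Gt (-0.64) lower. No muscle or dividing-cell gene was called, and the part of these markers in the Tra difference was not tested. In abdomens the difference was 1.95 (SE 0.30, adjusted p = 1.06e-05, 48.8% of genes called), again with no overlap. There 3 of the 6 germ line and 2 of the 3 dividing-cell genes were called lower at F14, beside the 48.8% of all genes called in either direction, and 2 of the 3 muscle genes and Lop1 were called higher.

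Haploid males were lower at F15 than at F5. In heads the difference was -1.22 (SE 0.28, adjusted p = 0.00201, 22.9% of genes called), with overlapping ranges of 35.9 to 102 and 76.04 to 189 TPM. Muscle sums beside them were 1245 to 7159 TPM at F15 and 701 to 2827 TPM at F5, with none of the 3 genes called, while Or1 was called higher and Pdf and Gt lower. In abdomens it was -1.17 (SE 0.30, adjusted p = 0.00804, 16.6% of genes called), again with overlap. There Gt was called lower (log2 -1.12, adjusted p = 0.00529), Hb (log2 2.83, adjusted p = 0.0128) and 1 of the 3 muscle genes, Tm2, were called higher, and the part of these markers in the Tra difference was not tested.

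Diploids of either sex gave no generation call. In diploid female heads the difference was 0.72 (SE 0.28, adjusted p = 0.0767, 16.4% of genes called), although every F14 library, from 744 TPM, exceeded every F2 library, up to 409 TPM. Other tests placed it past the threshold: limma on log2(TPM + 1) gave 1.16 (adjusted p = 0.0403, with the median gene at 0.37) and DESeq2 0.78 (adjusted p = 0.0471). In diploid male heads it was -0.37 (SE 0.27, adjusted p = 0.402, 10.2% of genes called), and -0.80 without C93 (adjusted p = 0.0377). In diploid female abdomens it was -0.31 (SE 0.31, adjusted p = 0.649, 2.16% of genes called) and in diploid male abdomens -0.14 (SE 0.31, adjusted p = 0.858, 8.97% of genes called). Collection and sequencing dates are not in the labels, so generation and anything else that differed between the collections cannot be told apart.

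**Figure D4:**
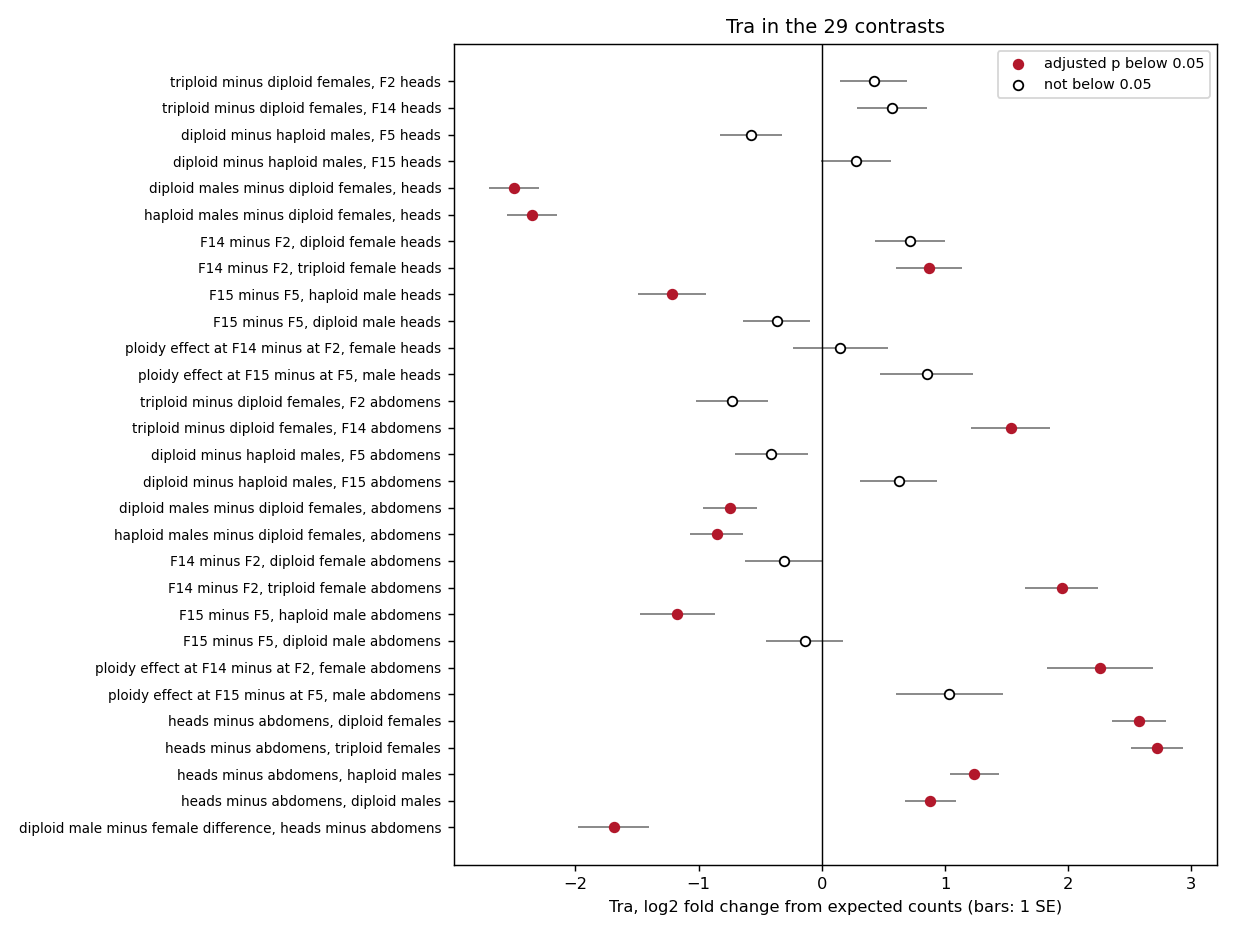
Log2 differences of Tra in the 29 contrasts (points, edgeR estimates from expected counts) with bars of 1 SE, filled where the adjusted p was below 0.05. The sex differences in heads, at -2.50 and -2.35, are the most negative, and the tissue differences in females, at 2.57 and 2.72, the most positive.

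Ordered by median, the 4 female head groups came first: F14 triploids at 1297 TPM, F14 diploids at 805, F2 triploids at 553 and F2 diploids at 368. F14 triploid abdomens followed at 195 TPM, then F5 haploid and diploid male heads at 147 and 121 TPM. Next came diploid female abdomens of F2 and F14 at 84.6 and 79.4 TPM, and F15 diploid and haploid male heads at 66.7 and 56.4 TPM. F5 haploid male abdomens at 51.8 TPM and F2 triploid female abdomens at 44.1 TPM came before the last 3 groups, all male abdomens, at 35.3 (F5 diploid), 34.8 (F15 diploid) and 24.4 TPM (F15 haploid).

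Of the 15 neighbouring pairs in that order, 12 had overlapping ranges. The 3 that did not were F14 diploid over F2 triploid female heads, F2 diploid female heads over F14 triploid abdomens, and F2 triploid female abdomens over F5 diploid male abdomens. The pairs were picked as neighbours by these same medians, and the smallest p of a two-sided exact permutation test is 0.0286 for 4 against 4 libraries and 0.0159 for 4 against 5. The values adjusted over the 15 pairs, the lowest being 0.119, therefore say little about whether neighbours differ.

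Among 20 sex determination entries sought by symbol, 3 genes were found: Tra, Dsx and Fru. Dsx was lower in diploid male than diploid female heads (log2 -0.75, SE 0.12, adjusted p = 0.000111, 9.0% of genes called). In male abdomens it was higher (log2 2.35, SE 0.35, adjusted p = 4.47e-07, 85.2% of genes called). Counts rise with transcript length, and Dsx transcripts were assigned longer lengths in males, as given below. In TPM, group means of Dsx in diploid heads were 134 (F2) and 175 (F14) in females, 55.3 (F5) and 50.5 (F15) in males. In diploid abdomens they were 101 and 38.6 in females, 124 and 147 in males. Fru was lower in diploid male heads (log2 -1.18, SE 0.22, adjusted p = 0.000472) and was at -0.16 in abdomens (SE 0.18, adjusted p = 0.392).

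In female abdomens Dsx was called for ploidy at both generations, with the signs that the Tra estimates had. It was lower in triploids at F2 (log2 -1.69, SE 0.45, adjusted p = 0.0141, 12.4% of genes called). At F14 it was higher in triploids (log2 3.17, SE 0.51, adjusted p = 0.000153, 26.7% of genes called). Dsx was at 313, 244 and 511 TPM in C66, C67 and C69 and at 31.7 TPM in C68. In F2 diploids C27, C28 and C29 had 91.4, 160 and 115 TPM of Dsx and C30 had 37.2 TPM. The same libraries stood apart in their dividing-cell sums, as given above, and the part of those cells in the Dsx values was not tested.

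Gene-level tables do not list splice forms, but the ratio of expected count to TPM gives the mean transcript length that RSEM assigned to a gene in each library, which moves when the mix of forms moves. This implied length, a measure added after the data were seen, is given as percent of the gene's mean over libraries. For Tra, which has 2 RefSeq transcripts, it stayed between 99.2% and 100.6% in every library. In heads the medians were 100.1% in females and 99.9% in males, with overlapping ranges (two-sided permutation p = 0.00814), and in abdomens the permutation p was 0.968. A difference this small gives no separate levels for the splice forms of Tra, and the levels above count all forms together.

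For Dsx, whose splicing transformer directs, the implied length separated the sexes completely. Female heads were at 70.3% to 91.9% (median 82.8%) and male heads at 123.7% to 131.3% (median 126.9%). Female abdomens were at 67.1% to 108.4% (median 74.8%) and male abdomens at 122.7% to 131.8% (median 127.7%). A two-sided permutation test gave p = 2e-05 in each tissue, the smallest value that 100000 resamples can give.

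Dsx was the only 1 of 5688 genes whose sexes did not overlap in heads (0.0176%), and 1 of 78 (1.37%) in abdomens. In abdomens 10 genes had a larger mean sex difference in implied length than Dsx, and in heads none did. The highest female Dsx length, 108.4%, was C39, an F2 triploid abdomen at 40.8 TPM of Tra, and the next female abdomen was at 80.7%. None of the 8 ploidy comparisons of Dsx length passed an exact permutation test, each adjusted p being 0.968. The smallest permutation p before adjustment was 0.246, in F5 male heads. With so few libraries per group, a difference in a single comparison could not pass after adjustment over the 8. The adjusted values therefore say little about whether ploidy moved the length. Between generations the length shifted in female heads. Means were 75.3% (diploid) and 75.2% (triploid) at F2, and 87.3% and 86.8% at F14. The highest F2 head, at 82.9%, stood just above the lowest F14 head, at 82.8%, and this shift was not tested. Diploid male heads were at 123.7% to 131.3% and haploid male heads at 124.0% to 128.8%.

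In abdomens the Dsx length separated the sexes where the levels of Tra overlapped. Male abdomens with up to 70.3 TPM of Tra were at male lengths, and female abdomens with as little as 38.95 TPM were at 70.8%. C93, with 174 TPM of Tra, had a Dsx length of 127.7%, within the male range, as did C46 at 126.5%. The lengths of Fru overlapped between the sexes in heads (permutation p = 0.319) and abdomens (permutation p = 0.339).

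**Figure D5:**
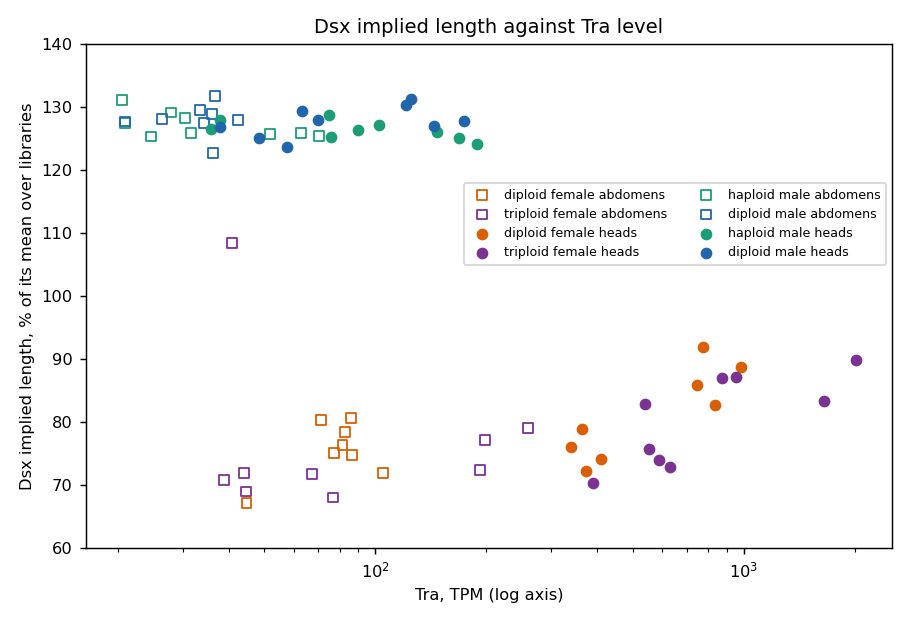
Implied length of Dsx transcripts (percent of the mean over libraries) against Tra level (TPM, log axis) in 69 libraries, with filled circles for heads, open squares for abdomens and colours for sex and ploidy. All males lie at 122.7% or above and all females at 108.4% or below, while the Tra levels of male and female abdomens overlap.

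The genes whose pattern was most like Tra were found by Pearson correlation of log2 CPM (counts scaled to a common library total) over the 16 group means, among 12968 genes. The points share libraries, and most of their range is the contrast of female heads with the rest. LOC100678462 came first (r = 0.93), the only gene at 0.9 or above, followed by LOC116418298 (0.89), Fru (0.88), LOC100121130 (0.87) and LOC100118185 (0.87). LOC116418298 was close to 0 throughout, with group medians of 0 to 0.705 TPM, and on log2(TPM + 1) it fell to rank 63. Among genes with a name, Fru was followed by Sr140 (0.83), a gene named for a U2 snRNP-associated protein, and by the odorant receptor genes Or276 (0.82), Or275 (0.78) and Or23 (0.72).

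LOC100678462 had group medians of 144 TPM in F14 triploid, 137 in F14 diploid, 72.6 in F2 triploid and 59.9 in F2 diploid female heads. In the other groups its medians ran from 3.73 TPM in F15 diploid male abdomens to 25.4 TPM in F5 diploid male heads. Fru had medians of 391, 301, 200 and 161 TPM in the same 4 female head groups, the order in which Tra stood. None of the 5 leading genes was among the 50 closest to Tra when deviations from group means were correlated over the 69 libraries.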

How the data were processed

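The series holds 70 poly-A RNA-seq libraries of Nasonia vitripennis heads and abdomens. The authors deposited a table of expected counts per gene and a table of TPM, made with STAR 2.7.11a and RSEM 1.3.1 per the submitters' processing notes. No label or header names the genome build, and no coordinates or sequences are printed. The kit named in the labels is not stated to keep strand, so reads of a gene and of any antisense partner could not be told apart.

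Expected counts (18.2% of values not whole) were rounded and tested with edgeR 4.0.16 (R 4.3.3; TMM, filterByExpr, glmQLFit, glmQLFTest, Benjamini-Hochberg over all genes tested): 35 heads in 1 fit, 34 abdomens in another, and all 69 libraries for tissue contrasts, each with a mean per group. Alternatives were RLE scaling, no filter, DESeq2 1.42.0, limma 3.58.1 on log2(TPM + 1) and log2(TPM + 0.1) for genes at 1 TPM or more in 4 libraries, the compared groups alone, C46 included, and each library left out. The scripts were tested on simulated data. Implied length used genes with at least 50 counts and 2 TPM in every library and was added after the data were seen. Named genes were Tra, sex determination genes found by symbol, and the 5 genes of any symbol and the 5 with a name most like Tra. The gene and the lists were chosen with earlier results of these data known. Lists of splicing factors, testis, fat body and gut genes matched too few genes by symbol, or none with a clear cell type, and were not used.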

Additional observations from a re-analysis of the deposited data

Results flagged for a closer look

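The ploidy difference of Tra in female abdomens changed between generations by 2.26 on the log2 scale (adjusted p = 0.000199 in edgeR), from -0.73 at F2 to 1.53 at F14. The diploid sex difference changed between tissues by -1.69 in the edgeR fit of all 69 libraries (adjusted p = 7.97e-07), where 74.3% of genes were called and the median was -0.46. In the separate fits of each tissue the sex difference was -0.74 in abdomens and -2.50 in heads.

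Among the 16 groups, 2 had a library far from its group by Dixon's test of the gap to the nearest library, and chance gives about 1 in 20 groups. C40, an F2 triploid female abdomen, was at 67.5 TPM against 38.95 to 44.6 TPM in the other 4 (gap 0.80 of the range). C50, an F5 diploid male abdomen, was at 20.9 TPM against 34.2 to 36.7 TPM in the other 3 (gap 0.84 of the range).

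C46, left out of the comparisons, was at 53.1 TPM, above the 20.9 to 36.7 TPM of the F5 diploid male abdomens it is labelled with and within the 48.4 to 144 TPM of F5 diploid male heads. Its summed head sensory genes (Or1, Lop1, HisCl1, Pdf and white) were at 4224 TPM, against 0.13 to 4.6 TPM in the 17 male abdomens used.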

How the results depend on the processing

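With RLE scaling and with no filter all 29 contrasts of Tra kept their direction and their side of the threshold, as did the 17 recomputed with C46 included. DESeq2 kept 28, limma on either TPM scale 26 and the fit of the compared groups alone 24. F14 against F2 in diploid female heads passed the threshold with limma at 1.161 (pseudocount 1) and 1.163 (pseudocount 0.1), with DESeq2 at 0.783 and with the compared groups alone at 0.7367. The compared groups alone also took triploid against diploid females past it at F2 in heads (0.4089) and abdomens (-0.7788), and diploid against haploid males in F15 abdomens (0.6433), and ended the F14 female abdomen call (1.541). On TPM the uncalled generation differences of diploid abdomens changed sign, to 0.04757 and 0.04904 in females and 0.1225 and 0.1265 in males. The causes were not tested.

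Of 376 refits without 1 library, 369 kept direction and call, 2 ended a call, 2 made one and 3 changed sign. The ranges were -0.92 to -0.5736 for ploidy in F2 female abdomens, -0.1513 to 0.4644 for ploidy in F15 male heads, -0.8025 to -0.1934 for F15 against F5 diploid male heads, 0.6498 to 0.9997 for F14 against F2 triploid heads and -0.08673 to 0.2642 for the change of the female head ploidy difference. Refits of the 69-library model kept the dispersion trend of the complete fit. No paired analysis was possible because no library code recurs between groups.

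The count of genes called moved by over 1.5 times in 13 contrasts with the compared groups alone, in 8 and 7 with limma, 5 with DESeq2, 2 with C46 and 1 with no filter. With the compared groups alone it went from 3281 to 429 in F14 female abdomens by ploidy, from 5995 to 2584 in triploid female abdomens by generation, and from 2697 to 1311 in haploid male heads by generation (1545 with limma). By mean CPM 12 of the 16 groups kept their rank. In CPM the 3 F14 triploid abdomens with high Tra again had the 3 lowest germ line sums of 17 female abdomens (778 to 1151 CPM).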
